A study of Mus musculus with 15 samples.

Results

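Lpl encodes lipoprotein lipase, the enzyme that releases fatty acids from the triglycerides of circulating lipoproteins. In the body it is best known from fat and muscle, where it is folded in the endoplasmic reticulum of the cells that make it, secreted, held by heparan sulfate and carried to the capillary wall by GPIHBP1. In the brain it is made by neurons and glia, where it is studied as a step in the uptake of lipoprotein lipids. On these arrays Lpl was 1 of 9669 genes named by a probe of its own and was represented by 3 of 20205 probes, those whose platform annotation names Lpl as the single gene symbol. Lpl was chosen by its difference between the 2 dye orientations, so that difference is given below as a description and without a test.

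The study compared total RNA of mouse brains on 15 arrays of 2 colours. The mutant channel held RNA of 5 brains of the O377 line, homozygous for an altered allele of Crybb2, a gene for a structural protein of the eye lens. The other channel of every array held the same pool of 4 wild-type brains. Mutant RNA was labelled with Cy5 on 7 arrays (wild type in Cy3) and with Cy3 on 8 arrays (wild type in Cy5). Age, sex and strain background are not given here by the labels, nor whether the mutant brains were pooled or which of them was on which array, so arrays are replicates that may share an animal, and the p-values below measure the spread between arrays. The single pool leaves the spread between wild-type animals out. In whole-brain RNA, fewer cells of a type and less RNA per cell cannot be told apart.

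Each value is a log ratio of the 2 channels, read here as log2, and its direction is not stated. If it runs Cy5 over Cy3, a gene that differs between mutant and wild type changes sign when the dyes are exchanged, and its difference is the dye-switching component, the mean with mutant RNA in Cy5 minus the mean with mutant RNA in Cy3, divided by 2. If it runs mutant over wild type, the difference between the genotypes is instead the shared component, the average of these means, and the dye-switching component is an effect of the dyes. Both are given for Lpl and, for the other genes, the dye-switching component by gene and the shared one by group or list. Genotype and dye cannot be told apart without that direction. Per array, 7843 to 10515 probes had a value, and 8058 probes with values on at least 4 arrays of each orientation entered the linear model. Of these, 52 (0.645%) passed an adjusted p of 0.05 in the dye-switching component, 25 of them (0.31%) on the negative side, and 0 (0%) in the shared component by limma, where 765 had an unadjusted p under 0.05. Arrays 9 and 10 had the widest spread of values. Ratios carry no level of expression, so the tissue label could not be checked. Of 13 neuronal marker genes, 11 had a probe and 8 a tested one, against 4372 of all 9669 genes named by a probe. Of 10 skeletal and heart muscle markers with a probe, 5 had a tested one, so a tested probe does not tell the tissue.

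Probe 3040 gave a value on 14 of 15 arrays. Its log ratios with mutant RNA in Cy5 were -1.65 on array 1, -1.16 on array 2, -0.55 on array 5, -0.88 on array 6, -1.13 on array 9 and -1.09 on array 13, and array 10 had no value. On the arrays with mutant RNA in Cy3 they were 0.57 on array 3, 1.05 on array 4, 0.64 on array 7, 0.85 on array 8, 0.64 on array 11, 1.12 on array 12, 0.54 on array 14 and 0.79 on array 15. Every array with mutant RNA in Cy5 was below 0 and every array with mutant RNA in Cy3 above 0, with a gap of 1.09 between the highest of the former and the lowest of the latter. Groups without overlap in this direction were found for 40 of all tested probes (0.496%). Since this contrast chose Lpl, nothing is read from that share.

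**Figure D1:**
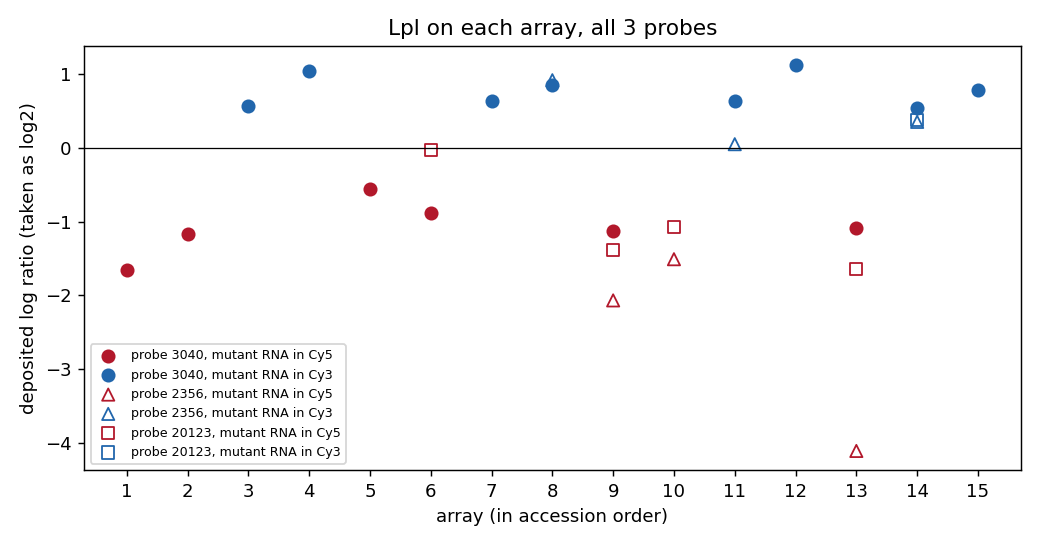
Deposited log ratio of Lpl (y axis, taken as log2) on each of the 15 arrays in accession order (x axis), for probe 3040 (filled circles), probe 2356 (triangles) and probe 20123 (squares), with mutant RNA in Cy5 in red and in Cy3 in blue. All red points lie below 0 and all blue points above it, and the lowest is -4.11 for probe 2356 on array 13.

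The mean of probe 3040 was -1.08 ± 0.36 (SD, n = 6 arrays) with mutant RNA in Cy5 and 0.77 ± 0.22 (SD, n = 8 arrays) with mutant RNA in Cy3. The dye-switching component was -0.93 ± 0.08 (SE, n = 14 arrays), a 1.90-fold difference. It was the fourth most negative of all 8058 tested probes (rank 4) and, by size on either side, ranked 16. Read as Cy5 over Cy3, this places Lpl RNA 1.90-fold lower in mutant than in wild-type brains. Read as mutant over wild type, the same number is a dye effect of the probe. The shared component, which was not used to choose Lpl, was -0.15 ± 0.08 (SE), which did not pass in the limma model (adjusted p = 0.551). Under that second reading Lpl would therefore stand slightly below 0 without passing the threshold.

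The position of Lpl among all values of its own array does not depend on the scale of that array. With mutant RNA in Cy5, between 1.7% of the values (array 1) and 10.2% (array 13) were lower than that of probe 3040. Between 91.3% (array 11) and 98.4% (array 12) were lower with mutant RNA in Cy3. Probe 3040 thus lay in the outer part of each of its 14 arrays, on opposite sides in the 2 orientations. The other 2 probes of Lpl did not on every array, with 46.6% of values below probe 20123 on array 6 and 54.9% below probe 2356 on array 11.

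**Figure D2:**
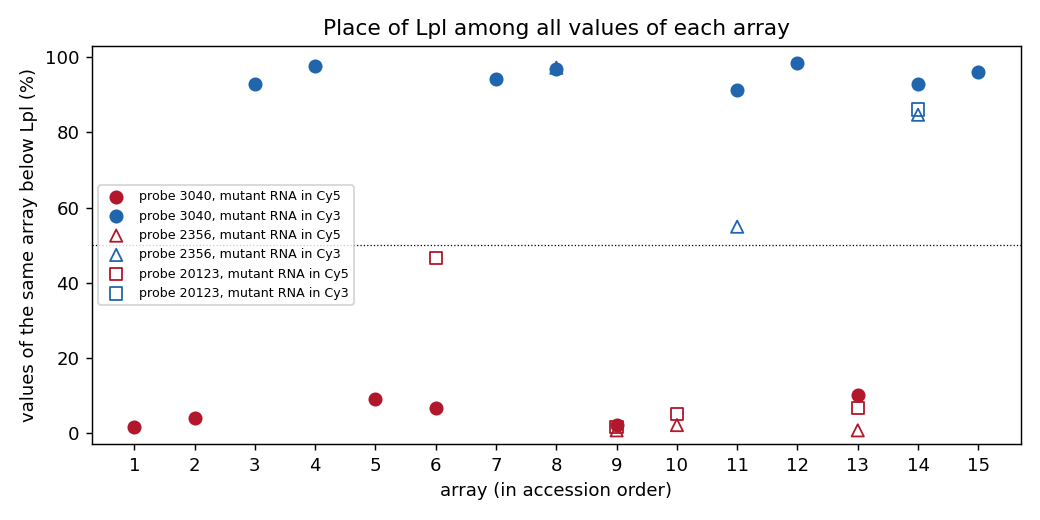
Share of the values on an array that were below the Lpl value of that array (y axis, in %), by array (x axis), with markers as in the plot of the log ratios. Probe 3040 lies between 1.7% and 10.2% with mutant RNA in Cy5 and between 91.3% and 98.4% with mutant RNA in Cy3, while probe 20123 on array 6 (46.6%) and probe 2356 on array 11 (54.9%) lie near the middle.

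The other 2 probes of Lpl had too few values for the linear model. Whether they had a part in the choice of Lpl is not known, so they too are given as a description. They read the same RNA on the same arrays, so they repeat the measurement of the transcript and not of the animals. Per the platform annotation, probes 2356 and 3040 both list the RefSeq transcript of Lpl, and probe 20123 lists 3 other sequence records.

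Probe 2356 had a value on 6 arrays. It stood at -2.07 on array 9, -1.51 on array 10 and -4.11 on array 13, all with mutant RNA in Cy5. In the other orientation it stood at 0.92 on array 8, 0.05 on array 11 and 0.35 on array 14. The groups did not overlap and lay on the same sides as those of probe 3040, with a gap of 1.56. Of 147 probes that also had 3 values in each orientation, 5 (3.4%) were separated in this direction, probe 2356 among them. With so few values, the lack of overlap by itself says little for probe 2356. Its means were -2.56 ± 1.37 (SD, n = 3 arrays) and 0.44 ± 0.44 (SD, n = 3 arrays), which gives a dye-switching component of -1.50 and a shared one of -1.06. Array 13 was well below the other values of this probe, though 0.7% of the values of that array were lower, the same share as on array 9. Arrays 9, 10 and 13 had the widest interquartile ranges of the series (0.731, 0.892 and 0.578). The components of this probe were not scaled for that spread.

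Probe 20123 had a value on 5 arrays. Its values with mutant RNA in Cy5 were -0.03 on array 6, -1.39 on array 9, -1.07 on array 10 and -1.65 on array 13, a mean of -1.03 ± 0.71 (SD, n = 4 arrays). Its only value with mutant RNA in Cy3 was 0.37, on array 14. The 4 values were again below the single one, as they were for 7 of 48 probes with 4 and 1 values (14.6%), so this probe by itself separates little. The dye-switching component was -0.70 and the shared one -0.33.

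The 3 probes can be set side by side where they were measured together. On array 9 the log ratios were -1.13 (probe 3040), -2.07 (probe 2356) and -1.39 (probe 20123). On array 13 they were -1.09, -4.11 and -1.65 in the same order. On array 14 they were 0.54, 0.35 and 0.37. The probes shared a sign on each of these arrays and differed most in size on array 13. Array 10, where probe 3040 had no value, was below 0 on both others. All 25 Lpl values of the series were below 0 with mutant RNA in Cy5 and above 0 with mutant RNA in Cy3. When the probes of each gene were averaged before the fit, the dye-switching component of Lpl was -1.0 ± 0.12 (SE) and the shared one -0.27 (adjusted p = 0.512 by limma).

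Among the 33 called probes with 1 gene symbol, 4 further genes had another probe with values in both orientations. Of these 5 other probes, 3 lay on the called side. For the nucleotidase gene Nt5c2 the other probe, with 2 values in each orientation, was at 0.26 against -1.17 for the called one. For Smim7, 1 of its other probes was on the called side. The other was not, with 2 values with mutant RNA in Cy5 and 1 in Cy3. The other probes of Mettl1 and Dclk1, which had enough values for the linear model, were on the called side at 0.11 and 0.14. Whether Lpl differs from these genes was not tested.

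The residual standard deviation of probe 3040 around its orientation means was 0.29, against a median of 0.34 over all tested probes, and 34.8% of probes had a smaller one. The largest residuals were -0.57 on array 1 and 0.53 on array 5, both with mutant RNA in Cy5. Arrays were also taken in runs of 4 in accession order, which hold both orientations. The dye-switching component was -1.11 in arrays 1 to 4, -0.73 in arrays 5 to 8, -1.01 in arrays 9 to 12 and -0.88 in arrays 13 to 15. It had the same sign in each run, and in the last 2 runs 1 array alone gave the Cy5 value. The labels do not say whether a run stands for an animal. With each array left out in turn the component of Lpl stayed between -0.98 and -0.87.

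The relatives of Lpl in the triglyceride lipase family share its fold. Of 8 family genes listed, 4 had a probe and 1 had a tested one, Pnliprp1. It encodes pancreatic lipase-related protein 1, known as a product of the exocrine pancreas. Pnliprp1 passed the threshold on the same side as Lpl. Beside it stand 0.31% of all tested probes on that side.

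The log ratios of Pnliprp1 with mutant RNA in Cy5 ran from -0.57 over a median of -0.44 to -0.25, all 7 below 0. In the other orientation they ran from 0.05 over a median of 0.22 to 0.36, all 8 above 0. The groups did not overlap, which held in this direction for 40 of all 8058 tested probes (0.496%). The means were -0.41 ± 0.12 (SD, n = 7 arrays) and 0.22 ± 0.10 (SD, n = 8 arrays). The dye-switching component was -0.32 ± 0.05 (SE), a 1.24-fold difference in the same direction on 15 of 15 arrays, with a limma adjusted p of 0.00124. It passed without any 1 array (adjusted p from 0.00165 to 0.00469). Its shared component was -0.09 ± 0.05, adjusted p = 0.538. With 1 value per run of 4 arrays, chosen after the data were seen, it was -0.33 and did not pass (adjusted p = 0.374).

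**Figure D3:**
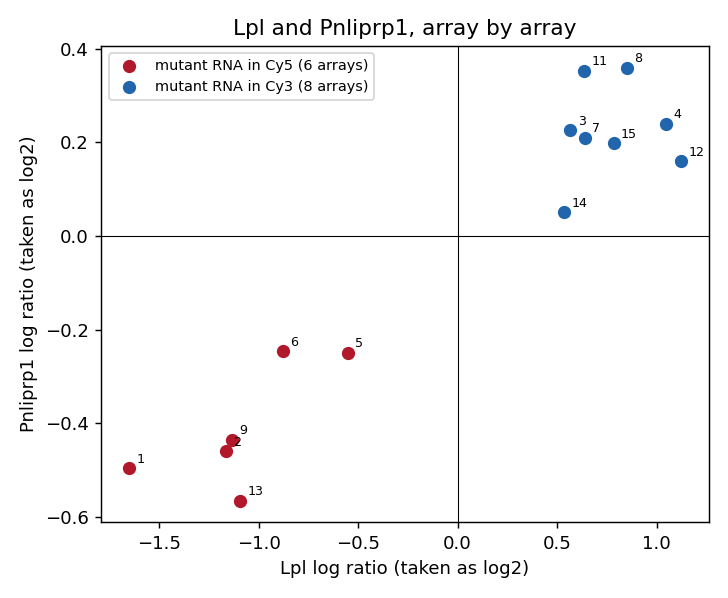
Log ratio of Pnliprp1 (y axis, taken as log2) against that of Lpl probe 3040 (x axis, taken as log2) on the 14 arrays that measured both, numbered in accession order and coloured by the dye of the mutant RNA. The 6 arrays with mutant RNA in Cy5 lie at the lower left and the 8 with mutant RNA in Cy3 at the upper right, and the axes differ in scale.

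The second Pnliprp1 probe had no value on any array. Of the other relatives, Pnliprp2 had 1 value, Liph 2 and Pla1a 0, so none could be compared. Since Pnliprp1 is a gene of the pancreas, 34 pancreatic genes were looked up after its value had been seen. The 9 with a tested probe had a median dye-switching component of 0.03, from -0.19 for the chymotrypsin gene Ctrc to 0.19 for Spink1, and none passed (smallest adjusted p 0.542 by limma). Whether the Pnliprp1 probe also binds other transcripts was not tested.

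The genes that fold, cut, carry, activate or inhibit the lipase, and a transcriptional repressor gene listed with them, gave no call. Of 19 listed, 15 had a probe and 7 a tested one, with 8 probes. In limma, 0 of these 8 passed in either component and 0 had an unadjusted p under 0.05, and their median dye-switching component was 0.08, against 0.01 for all tested probes. Lmf1, the endoplasmic reticulum factor without which the lipase does not mature, was at -0.09 ± 0.09 (SE, n = 14 arrays), and at -0.14 without array 13. The chaperone gene Canx was at -0.06 ± 0.07 and the disulfide isomerase gene P4hb at 0.02 ± 0.06. Furin, a protease that cuts the lipase, was at 0.10 ± 0.11. The sorting receptor gene Sort1 was at 0.09 ± 0.10 on 1 probe and 0.25 ± 0.16 on another. Apoa5, an apolipoprotein that promotes lipolysis, was at 0.08 ± 0.07, and the transcriptional repressor gene Bhlhe40 at 0.17 ± 0.08. Adjusted p over these genes was at least 0.53 in the dye-switching component and at least 0.609 in the shared one, where the values ran from -0.17 to 0.15 with a median of -0.02. The sign of P4hb turned under some alternatives, from -0.01 to 0.05.

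The partners best known for controlling the enzyme could not be compared. The capillary carrier gene Gpihbp1 had 1 value, -2.63 with mutant RNA in Cy5. The inhibitor gene Angptl4 had 1 value, 0.78, and Apoc1 had 1 value, 0.41, both with mutant RNA in Cy3. The gene of the cofactor apolipoprotein, Apoc2, had 0 values. Sel1l, listed with the genes of lipase maturation, had 2 values in 1 orientation.

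Lipid genes further from Lpl were described through 8 more lists. Over all 10 lists, 169 genes had a probe and 84 a tested one. Of their 94 probes, 1 passed in the dye-switching component, Pnliprp1, which is 1.06% against the 0.645% of all tested probes. None passed in the shared component by limma. At an unadjusted p under 0.05 there were 8 in the dye-switching component (8.51%, against 9.57% of all tested probes) and 10 in the shared one (10.6%, against 9.49%). The median dye-switching component of the 94 probes was 0.01, like that of all tested probes (0.01). Their shared components ran from -0.32 to 0.38 with a median of 0.00. So these lists were close to the background, and none of their genes named next passed, save Mttp and Thrsp with robust regression.

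Among lipoproteins, 6 probes had a median of -0.06. The assembly factor gene Mttp was lowest at -0.26 ± 0.16 (SE, n = 15 arrays), and at -0.12 without array 7. Mttp had an adjusted p of 0.657 by limma, and 0.0145 with robust regression (from 0.0145 to 0.804 over all alternatives). Apod, an apolipoprotein abundant in brain, was highest at 0.06 ± 0.06. Among receptors, 5 probes had a median of 0.12, and both ends were probes of Sorl1, a sorting receptor of neurons. They stood at -0.17 ± 0.07 and 0.34 ± 0.17, so the probes of this gene lay on opposite sides, and their average was at -0.01.

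Among other lipases and lipid droplet genes, 12 probes had a median of -0.01, from -0.17 ± 0.32 for the phospholipase gene Ddhd1 to 0.20 ± 0.14 for the lysophospholipase gene Pnpla7. Ddhd1 ran from -0.36 to 0.12 over the alternatives and so has no settled sign, and Pnpla7 ran from 0.04 to 0.30. Genes of fatty acid uptake and binding had a median of 0.01 over 7 probes. Their ends were the acyl-CoA-binding domain gene Acbd3 at -0.10 ± 0.07 and the fatty acid transporter gene Slc27a4 at 0.16 ± 0.07. Fatty acid and triglyceride synthesis had a median of -0.03 over 14 probes. Its ends were Lpin2, a phosphatidate phosphatase gene, at -0.17 ± 0.09 and the lipogenic regulator gene Thrsp at 0.27 ± 0.08. Thrsp had an adjusted p of 0.213, and 0.0499 with robust regression (from 0.0499 to 0.764 over all alternatives).

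Fatty acid oxidation had a median of 0.02 over 14 probes, from -0.13 ± 0.09 for the trifunctional protein gene Hadha to 0.26 ± 0.28 for the carnitine palmitoyltransferase gene Cpt1b. The value of Cpt1b rested on array 5 and was -0.03 without it. Regulators of the transcription of Lpl had a median of 0.04 over 14 probes, from -0.15 ± 0.09 for the coactivator gene Ncoa1 to 0.27 ± 0.14 for the coactivator gene Ppargc1b. In the shared component this list had a median of 0.09, and 5 of its 14 probes had an unadjusted p under 0.05 with a smallest adjusted p of 0.382. Over all tested probes 9.49% had such a p in that component, and this list was looked at for it after its values were seen. The genes of heparan sulfate and its carriers, which hold the lipase at the cell surface, had a median of -0.01 over 13 probes. They ran from -0.09 ± 0.10 for Sdc3 to 0.26 ± 0.30 for Sdc2, both syndecans. Sdc3 turned sign under an alternative (from -0.13 to 0.02), and Sdc2 ran from 0.03 to 0.45.

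**Figure D4:**
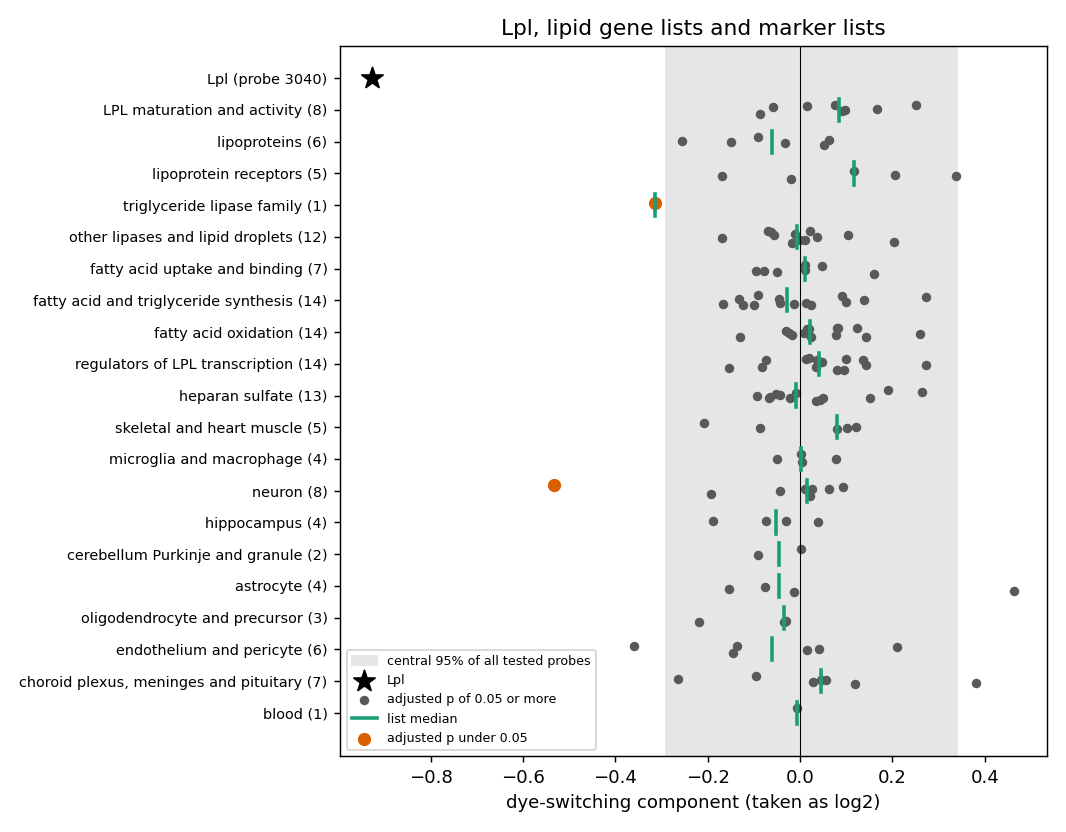
Dye-switching component (x axis, taken as log2) of Lpl probe 3040 (star) and of each tested probe of the lipid and marker lists (rows, with the number of probes), where green lines are list medians, orange points passed an adjusted p of 0.05 and the grey band holds the central 95% of all tested probes. Lpl at -0.93 lies outside the band, from -0.29 to 0.34, and the 2 orange points are Pnliprp1 at -0.32 and Thy1 at -0.53.

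Markers of cells that make Lpl, or that could bring it into a brain sample, were counted in the same way. Fat and muscle are the richest sources of Lpl outside the brain. None of the 11 adipocyte genes had a tested probe, so fat could not be assessed. Of skeletal and heart muscle markers, 5 probes had a median of 0.08 (from -0.21 to 0.12) and 0 passed. Of microglia and macrophage markers, 4 probes had a median of 0.00 (from -0.05 to 0.08). Markers of hippocampus (4 probes) had a median of -0.05, of cerebellum (2) -0.04, of astrocytes (4) -0.04, of oligodendrocytes and their precursors (3) -0.04 and of endothelium and pericytes (6) -0.06. Those of choroid plexus, meninges and pituitary (7) had a median of 0.05, and the 1 blood probe was at -0.01. None of these passed. Of neuronal markers (8 probes, median 0.02), 1 passed on the side of Lpl, the surface glycoprotein gene Thy1 at -0.53 ± 0.11 (SE, n = 15 arrays, 13 of 15 on that side), limma adjusted p = 0.0276. That was 1 of 44 marker probes (2.27%), against 0.645% of all tested probes on either side and 0.31% on the negative side. Thy1 did not pass without any 1 of 7 arrays, 1, 2, 3, 4, 9, 11 and 12 (adjusted p from 0.0505 to 0.0622), nor with 1 value per run of 4 arrays (adjusted p = 0.663). The shared components of the 44 probes ran from -0.44 to 0.24 with a median of -0.01, and 0 passed by limma. The part of cell composition in the Lpl values was not tested.

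Lpl and Crybb2 lie on different chromosomes of the GRCm38.p6 reference. The order of genes in that reference was used to look at the neighbours of Lpl. On one side the nearest genes with a tested probe were Marchf1 at -0.04 ± 0.08 (SE), Msmo1 at 0.10 ± 0.09 and Cpe at 0.03 ± 0.07, none past the threshold. Between these and Lpl lay 12, 20 and 21 protein-coding genes in turn. On the other side the nearest were Atp13a1 at 0.10 ± 0.07, Cilp2 at 0.04 ± 0.13 and Gatad2a at 0.31 ± 0.06. There, 13 protein-coding genes lay before Atp13a1 and 17 before Cilp2. The genes closest to Lpl could thus not be compared. Gatad2a, a subunit gene of a chromatin remodelling complex, passed on the side opposite to Lpl (adjusted p = 0.0169 by limma, 13 of 13 arrays), with 21 protein-coding genes between it and Lpl. That was 1 of 6 neighbours, against 0.645% of all tested probes on either side. With 1 value per run of 4 arrays Gatad2a did not pass (adjusted p = 0.495). Marchf1, Msmo1, Cpe and Cilp2 each turned sign under at least 1 alternative. The shared components of the 6 neighbours ran from -0.08 to 0.13 (0.13 for Gatad2a), with adjusted p of at least 0.516.

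Likeness to Lpl was measured by correlation over the arrays that measured both, for 6563 tested probes with at least 12 such arrays. The genes named were picked among the 3966 of these probes with 1 gene symbol. The arrays share 1 wild-type pool, 5 mutant brains and the dyes, so these correlations are descriptions. In the deposited values the contrast that chose Lpl dominates. The most alike, over 14 arrays, were Nt5c2 (r = 0.95, rho = 0.82), Pnliprp1 (r = 0.95, rho = 0.82), the interferon-induced gene Ifi27 (r = 0.92, rho = 0.68), Wdr11 (r = 0.89, rho = 0.82) and Pigf (r = 0.89, rho = 0.74). The most opposed were the stress transcription factor gene Xbp1 (r = -0.95), the protease gene Capn3 (r = -0.94), Mrpl48 (r = -0.93), Zswim7 (r = -0.92) and Atp5g2 (r = -0.91). All 10 were past the threshold in the dye-switching component, and 0 in the shared one (from -0.10 to 0.14, adjusted p at least 0.538 by limma). With 1 value per run of 4 arrays, 7 of the 10 did not pass the former, namely Pnliprp1, Wdr11 (adjusted p = 0.645), Ifi27 (0.0529), Pigf (0.317), Mrpl48 (0.145), Zswim7 (0.279) and Atp5g2 (0.0726). By rank correlation, 0 of the 5 highest and 0 of the 5 lowest were named again. Wdr11, at -0.26 (adjusted p = 0.037), lost its call without any 1 of 13 arrays, all but 2 and 5 (adjusted p from 0.0551 to 0.0759).

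With the orientation means removed, which takes that contrast out, other genes came first. The highest were Trpm3, a cation channel gene (r = 0.84, rho = 0.64, 13 arrays), Ess2 (r = 0.81, rho = 0.72), Ccdc130 (r = 0.79, rho = 0.77), the kinase gene Cdk11b (r = 0.77, rho = 0.58) and Cpsf1, of mRNA 3′ end processing (r = 0.77, rho = 0.67). The lowest were the axon guidance gene Sema5a (r = -0.84), the inositol phosphatase gene Inpp5a (r = -0.84, 12 arrays), Bckdha (r = -0.76), the ubiquitin-conjugating enzyme gene Ube2l3 (r = -0.73) and the RNA helicase gene Ddx47 (r = -0.73). None of these 10 passed in the dye-switching component (Trpm3 at -0.20, adjusted p = 0.213 by limma), though Trpm3 did with robust regression (adjusted p = 0.0237). Their shared components ran from -0.21 to 0.07, none past the threshold. They are the ends of the 3966 correlations of probes with 1 gene symbol. Over all 6563 probes the middle ran from -0.49 at the lower 5% to 0.48 at the upper 5%. Of the 5 most alike in the deposited values, Wdr11 was at 0.55 by this measure, Pnliprp1 at 0.48, Nt5c2 at 0.27, Ifi27 at -0.12 and Pigf at -0.13. By rank correlation of these residuals, 1 of the 5 highest and 2 of the 5 lowest were named again.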

How the data were processed

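For every probe measured on an array, the authors deposited 1 log ratio, centred per array, which was read as log2. The largest value in size, 12.33, exceeds 11.09, the natural log of the largest ratio of a 16-bit scanner. Processed signals can fall below 1, so this does not settle the base. Column medians lay between -0.00618 and 0.0165. The centring is inferred from these medians. The centring method, the direction of the ratio and the rule that left probes empty are not given in the sources used here. An empty cell may be a dim or a removed spot. Coordinates are left out, since the arrays' build is not named. Of 20205 probes, 11723 had 1 gene symbol, 806 several and 7676 none, per the platform annotation. Of the 11723, 11590 matched the GRCm38.p6 table by gene identifier, and no symbol changed.

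Values were used as deposited. A linear model with a term for dye orientation was fitted with limma 3.58.1 (R 4.3.3) to 8058 probes with values on at least 4 arrays of each orientation, eBayes moderated, two-sided, with Benjamini-Hochberg adjustment and a threshold of 0.05. It was tested on simulated data. No set test was run. The number of arrays limits the precision. The highest Pearson correlation between arrays was 0.135, so no array repeated the values of another and each was counted once. That does not make arrays independent, since they share the wild-type pool and may share a mutant animal.

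Lpl and the gene lists were chosen with earlier results of these data known. The text names Lpl, every tested partner or family member, the most positive and most negative member and any past the threshold of each other lipid list, markers past the threshold, the 3 nearest tested genes on each side and the 5 probes at each end of likeness. Nt5c2, Smim7, Mettl1 and Dclk1 as genes with other probes, Ctrc and Spink1 of the pancreas list, and untested partners are outside this rule. Their values had been seen when they were picked. Alternatives were other centring, scaling, filters, weights, variance models, robust regression, limited values, single components, averaged probes, runs of 4 arrays as a random block, and arrays left out. Figures were drawn with matplotlib 3.10.9.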

Additional observations from a re-analysis of the deposited data

Results flagged for a closer look

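In 105 sets of array values, those of the named genes within 1 dye orientation, 8 held a value far from the others, and chance gives about 1 in 20. None was a set of Lpl. With mutant RNA in Cy5 these were Cpt1b at 3.27 on array 5 (next highest 0.144), Lmf1 at 0.471 on array 13 (next highest -0.097), Ccdc130 at -1.36 on array 1 (next lowest -0.275) and Capn3 at 0.888 on array 10 (next lowest 1.77). With mutant RNA in Cy3 they were Mttp at 2.38 on array 7 (next highest 0.367), Wdr11 at 0.537 on array 12 (next highest 0.191), Ddx47 at 0.175 on array 3 (next highest 0.052) and Ncoa1 at -0.698 on array 3 (next lowest -0.114).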

How the results depend on the processing

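The dye-switching component of Lpl stayed negative under all 29 alternatives run, between -0.98 and -0.87 with each array left out in turn and between -1.0 and -0.90 under the others. The shared component of Lpl ran from -0.27 to -0.02 and did not pass under any of them (adjusted p from 0.268 to 0.984). The 52 probes called in the dye-switching component became 36 to 49 with 1 array left out (16 negative without array 11, against 25), 81 with array weights, 204 with robust regression and 6 with 1 value per run of 4 arrays in accession order, an alternative added after the data were seen. In the shared component robust regression gave 107 in place of 0. Of the lipid list probes, robust regression called 3 in the dye-switching component, Pnliprp1, Thrsp and Mttp, and 1 value per run called 0. With 1 array left out it was 1 each time. For each of these counts the cause was not tested. Runs of 4 arrays as a random block gave 53 calls. No paired analysis was possible because the titles number the arrays singly, so no number occurs in both orientations. What limits these results is that the ratio's direction is unknown, that 2 of 3 Lpl probes were measured on few arrays, and that arrays are not tied to animals.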
